A study of Drosophila melanogaster with 15 samples.

Results

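Transcripts of 10 nuclear genes whose products fold or degrade proteins inside mitochondria were examined in the larval nervous system of Drosophila melanogaster, with RNAi in neurons against the respiratory chain or the ATP synthase. They were chosen by name, as the chaperones and proteases read out in the mitochondrial unfolded protein response, and every probe set annotated to them was taken. They are 10 of the 12548 genes that the array's annotation lists. This gave 11 of the 18769 probe sets that were not array controls. The genes Hsp60A, Hsc70-5, Trap1, Roe1, Lon, ClpX, ClpP, Afg3l2 and YME1L had 1 probe set each. Hsp22 had 2, and both are also annotated to CG4456, an overlapping neighbour in RefSeq's Release 6 gene table whose synonyms include Hsp67Bb. No probe set was annotated to Hsp22 alone, so transcripts of Hsp22 and CG4456 cannot be told apart and these are called the Hsp22/CG4456 probe sets.

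RNA came from the whole central nervous system of wandering larvae, and 5 groups of 3 Affymetrix arrays were compared. In the 4 RNAi groups nSyb-Gal4, a driver active in neurons, expressed a construct against ND-75 of complex I (line 33910), UQCR-14 of complex III (line 109542), COX5B of complex IV (line 105769) or ATPsynCf6 of the ATP synthase (line 107826). Control larvae carried the driver with no RNAi construct (nSyb-Gal4/+, written nSyb-Gal4/w in the design text). Larvae were kept at 25 °C, 15 of them made up 1 sample, and amplification started from 10 ng of RNA. Each target had 1 line and no group carried RNAi against an unrelated gene, so a change of a group cannot be told apart from an effect of its line or of expressing any hairpin. Glia and neural stem cells, which the driver is not meant to reach, are in the same RNA. In such tissue fewer cells of a type and less RNA per cell cannot be told apart. Nothing in the labels says whether the 3 samples of a group came from separate crosses. The p-values rest on the spread between samples within groups, pooled over the groups, and cannot speak for separate crosses.

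Most mitochondrial proteins are made in the cytosol, imported unfolded, and folded by chaperones in the matrix. When respiratory complexes are short of a subunit or misfolded protein accumulates, cells can raise the transcription of mitochondrial chaperones and proteases, a programme called the mitochondrial unfolded protein response. The mitochondrial Hsp70 and its exchange factor take up incoming chains, the Hsp60 chaperonin folds them, and ATP-dependent proteases of the matrix and inner membrane remove those that fail. Hsp22 is a small heat shock protein of the mitochondrial matrix in flies.

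Signals are MAS5 intensities on a linear scale, and log2 changes were taken after adding 16. Of the 11 probe sets, 10 exceeded the array median on all 15 arrays. The array medians ran from 23.1 to 64.1. A set of 5 arrays stood apart in the shape of their distribution, with upper quartiles of 167 to 480 against 557 to 646 in the other 10. These were replicate 3 of the control and of every RNAi group but ATPsynCf6, and replicate 1 of COX5B RNAi. For this reason 3 limma fits are given: all 15 arrays with equal weight, which is the planned test, all 15 with weights that limma estimates from each array's scatter, and the 10 arrays alone. The weights were 0.0266 to 0.297 in the 5 arrays and 1.01 to 5.21 in the others. In the 10-array fit COX5B RNAi was left with replicate 2, taken to have the spread of the others.

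The targeted transcripts did not mark the groups clearly. ND-75 had signals of 305, 195 and 194 under ND-75 RNAi and 335, 387 and 304 in control, and COX5B had 989, 1958 and 7716 under COX5B RNAi and 2725, 2952 and 8404 in control. UQCR-14 had 7835, 6321 and 30487 under UQCR-14 RNAi and 7959, 6616 and 20967 in control. ATPsynCF6 had 3585, 2828 and 3285 under ATPsynCf6 RNAi and 3108, 3003 and 3579 in control. None of the 4 passed the test in its own group with equal or estimated weights. Neuron markers were present: all 5 measured ones exceeded the array median in the ND-75 RNAi, ATPsynCf6 RNAi and control arrays, and at least 4 did in the UQCR-14 and COX5B RNAi arrays.

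The clearest difference among the 10 genes was in Hsp22/CG4456. The fitted level of the brighter of its 2 probe sets was 5.72 to 9.40 times that of control in the RNAi groups with equal array weights, and 7.28 to 14.04 times with the estimated weights, and 11 of the 12 RNAi arrays lay above all 3 control arrays. Against this, the chaperones Hsp60A and Trap1 and the proteases Lon, ClpX, ClpP and YME1L passed the test against control in no RNAi group in any of the 3 fits. Roe1 was lower under ND-75 and UQCR-14 RNAi, and Hsc70-5 and Afg3l2 were higher under ATPsynCf6 RNAi. All of these calls came from the fits that allow for the 5 arrays. With equal weights, 0 of 11 member probe sets were called in each comparison, at a background of 0.0677% of the 10340 probe sets tested for ND-75 RNAi, 0.0484% for UQCR-14 RNAi, 0% for COX5B RNAi and 0.0193% for ATPsynCf6 RNAi. At an unadjusted p under 0.05 this fit held 2 member probe sets (background 1.5%), 1 (2.21%), 1 (5.59%) and 1 (1.3%) in the same order of groups. For the mean of the 4 RNAi groups it called 0 of 11 (0.0484%), and for the F test among them 0 of 11 (0.106%).

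With array weights, 2 of 11 were called under ND-75 RNAi (background 1.57%), 2 under UQCR-14 RNAi (4.47%), 1 under COX5B RNAi (0.203%) and 3 under ATPsynCf6 RNAi (6.91%). In the 10 arrays the numbers were 2 (1.69%), 1 (4.59%), 1 (1.24%) and 1 (3.22%). The mean of the 4 RNAi groups had 1 call with array weights (3.99%) and 1 in the 10 arrays (3.12%), both for the brighter Hsp22/CG4456 probe set. The median weighted change over the members was 0.11 under ND-75 RNAi, -0.03 under UQCR-14 RNAi, -0.01 under COX5B RNAi and 0.15 under ATPsynCf6 RNAi on the log2 scale. Over all kept probe sets it was -0.01, -0.02, -0.01 and 0.00. The calls came from single genes, and most members lay near the median of all probe sets.

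**Figure D1:**
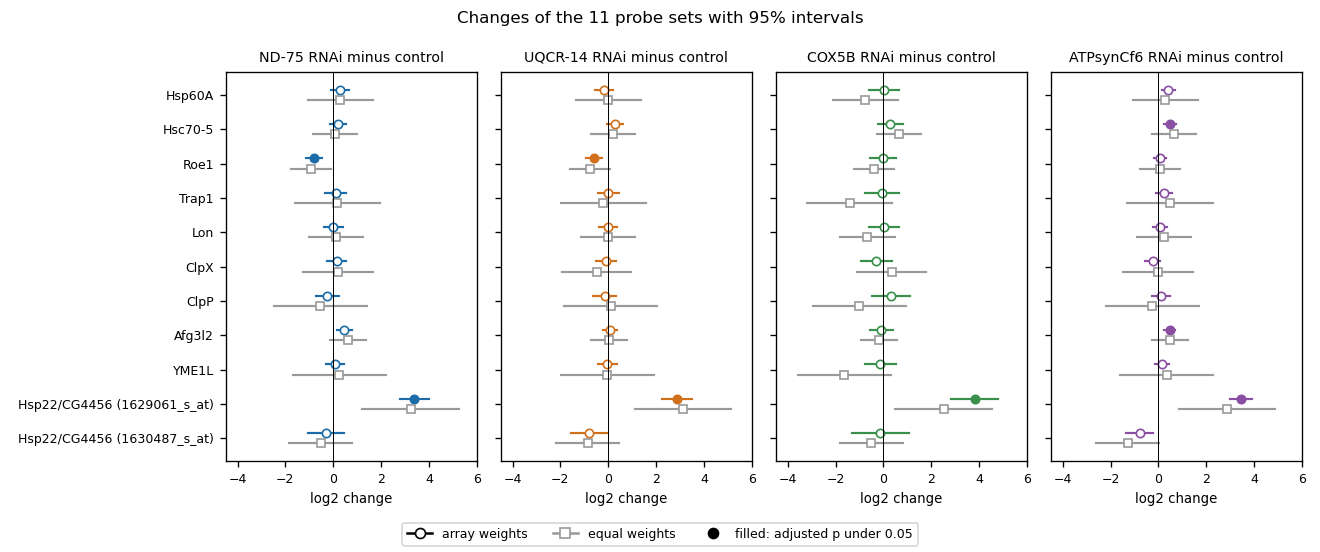
Log2 change of each member probe set against control (horizontal axis, with 95% intervals) for the 4 RNAi groups, with array weights (circles) and with equal weights (squares), filled where the adjusted p was under 0.05. The brighter Hsp22/CG4456 probe set lies between 2.86 and 3.81 with array weights in all 4 groups, while most other members lie near 0.

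The brighter Hsp22/CG4456 probe set had signals of 2422, 1872 and 7883 under ND-75 RNAi, 1962, 1459 and 10066 under UQCR-14 RNAi, 437, 2752 and 6511 under COX5B RNAi and 3110, 2467 and 2139 under ATPsynCf6 RNAi. Control arrays had 223, 183 and 908. The groups did not overlap with control under ND-75, UQCR-14 and ATPsynCf6 RNAi. Under COX5B RNAi, replicate 1 lay above controls 1 and 2 but below control 3, and this array has the lowest weight of all. All 12 RNAi arrays exceeded controls 1 and 2.

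The 4 arrays numbered 3 that stand apart were brighter for this probe set in every group, control included, so the contrast was also taken within them. There the signal was 8.68 times that of control 3 under ND-75 RNAi, 11.1 times under UQCR-14 RNAi and 7.17 times under COX5B RNAi. Among the 10 other arrays it was 10.6 times the geometric mean of controls 1 and 2 under ND-75 RNAi, 8.39 times under UQCR-14 RNAi, 13.6 times under COX5B RNAi and 12.6 times under ATPsynCf6 RNAi. The ratios within the arrays numbered 3 each set 1 array against 1 array. Among the 10 others the COX5B RNAi ratio rests on replicate 2 alone. COX5B RNAi replicate 1, at 437, is in neither set.

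With equal weights the log2 change was 3.23 under ND-75 RNAi (95% interval 1.21 to 5.25), 3.13 under UQCR-14 RNAi (1.11 to 5.15), 2.52 under COX5B RNAi (0.50 to 4.53) and 2.86 under ATPsynCf6 RNAi (0.84 to 4.88). No interval reached 0, but after Benjamini-Hochberg adjustment over all kept probe sets limma's p was 0.541 under COX5B RNAi and 1.00 in the others. The mean of the 4 RNAi groups was 2.93 above control (SE 0.75, adjusted p = 0.667).

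With array weights the changes were 3.39 (SE 0.29, adjusted p = 1.17e-06) under ND-75 RNAi, 2.86 (SE 0.29, adjusted p = 1.32e-05) under UQCR-14 RNAi, 3.81 (SE 0.48, adjusted p = 0.000724) under COX5B RNAi and 3.45 (SE 0.22, adjusted p = 1.16e-08) under ATPsynCf6 RNAi. In the 10 arrays the changes were 3.30, 2.97, 3.67 and 3.55 in the same order, with adjusted p of 1.80e-06, 9.52e-06, 1.73e-05 and 3.63e-07. These calls rest on controls 1 and 2, which carry almost all of the control group's weight. Leaving out control 1 or control 2 from the weighted fit ended the call in all 4 groups, with adjusted p between 0.358 and 1.00. Under UQCR-14 RNAi the call was also lost without replicate 1 (adjusted p = 0.841) or replicate 2 (0.606), and under COX5B RNAi without replicate 2 (0.742) or replicate 3 (0.824). The change itself stayed between 1.90 and 4.28 over these refits of the 4 groups.

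The rise did not differ detectably by the complex targeted. The weighted F test among the 4 RNAi groups gave an adjusted p of 0.637 for this probe set. The estimates of UQCR-14 RNAi minus COX5B RNAi (-0.95, adjusted p = 1.00) and of UQCR-14 RNAi minus ATPsynCf6 RNAi (-0.59, adjusted p = 0.318) leave room for differences that these arrays could not resolve.

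**Figure D2:**
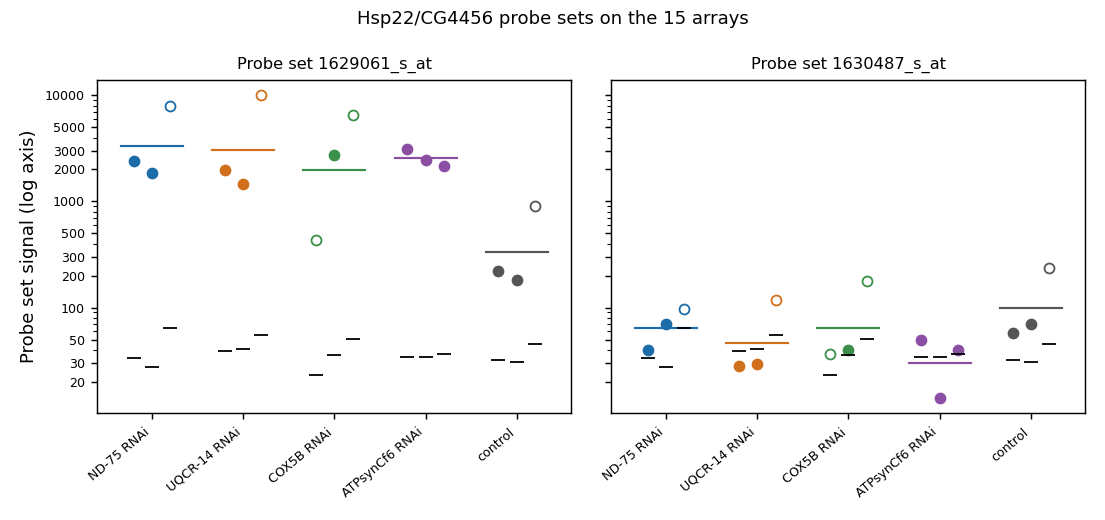
Signal of the 2 Hsp22/CG4456 probe sets on each array (vertical log axis) by group, with the group's geometric mean as a coloured bar, the array median as a black tick and open circles for the 5 arrays that stand apart. The brighter one runs from 437 to 10066 in the RNAi arrays and from 183 to 908 in control. The dimmer one runs from 14.1 to 178 in the RNAi arrays and from 57.7 to 237 in control.

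The other Hsp22/CG4456 probe set was far dimmer and did not follow the first. Its signals were 39.6, 69.6 and 97.5 under ND-75 RNAi, 28.0, 29.4 and 119 under UQCR-14 RNAi, 36.4, 40.3 and 178 under COX5B RNAi and 49.8, 14.1 and 39.6 under ATPsynCf6 RNAi, against 57.7, 70.7 and 237 in control. It was under the array median on 3 arrays. The ATPsynCf6 RNAi arrays lay below all control arrays, and the other groups overlapped with control.

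Its weighted changes were -0.30 under ND-75 RNAi, -0.81 under UQCR-14 RNAi (adjusted p = 0.227), -0.12 under COX5B RNAi and -0.78 under ATPsynCf6 RNAi (adjusted p = 0.0953). With the replicate number as a block and array weights it passed the test as lower under UQCR-14 RNAi (-0.93, adjusted p = 0.0105, background 15.7%). When both probe sets were averaged on the log2 scale, the equal-weight change was 1.35 under ND-75 RNAi, 1.13 under UQCR-14 RNAi, 1.01 under COX5B RNAi and 0.78 under ATPsynCf6 RNAi. Probe sets for the same annotated genes thus disagreed, and which transcripts each one reads was not tested.

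RNA of other tissues was measured beside this result. Of the 8 salivary gland genes, 7 passed the filter on low values. Under UQCR-14 RNAi 4 of these 7 were called higher with array weights, where 4.47% of all probe sets were called in either direction. The summed signal of the 8 was 961 to 7176 under ND-75 RNAi, 3530 to 17694 under UQCR-14 RNAi, 2315 to 10848 under COX5B RNAi, 1001 to 1768 under ATPsynCf6 RNAi and 884 to 12716 in control. Under ND-75, COX5B and ATPsynCf6 RNAi it lay within the control range. The summed signal of 3 fat body genes was 470 to 2070 under ND-75 RNAi, 1432 to 7927 under UQCR-14 RNAi, 332 to 1748 under COX5B RNAi, 599 to 6330 under ATPsynCf6 RNAi and 548 to 4097 in control. For 5 muscle genes it was 171 to 306, 221 to 508, 167 to 399, 211 to 273 and 128 to 327 in the same order of groups. Of 5 neuron markers nSyb, which encodes a synaptic vesicle protein, passed as lower under UQCR-14 RNAi with array weights (-0.95, adjusted p = 0.00960). There 1 of 4 glia and 1 of 4 muscle markers passed as higher (background 4.47%). Under ATPsynCf6 RNAi 1 of 4 glia markers passed as higher and 2 of 5 ring gland markers as lower (background 6.91%). Under ND-75 RNAi 1 of 4 haemocyte markers passed as lower (1.57%). No neuroblast or fat body marker passed, and under COX5B RNAi no marker did (background 0.203%). No marker was at 0 on any array, and the part of these tissues in the members' changes was not tested.

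Roe1 encodes the GrpE-type factor that releases nucleotide from mitochondrial Hsp70. Its signals were 312, 245 and 264 under ND-75 RNAi, 390, 316 and 218 under UQCR-14 RNAi, 241, 546 and 455 under COX5B RNAi and 555, 505 and 585 under ATPsynCf6 RNAi, against 490, 574 and 518 in control. All arrays of ND-75 and UQCR-14 RNAi lay below all control arrays, while COX5B and ATPsynCf6 RNAi overlapped with control. Of the member probe sets, 1 of 11 was below control in this way under ND-75 RNAi (background 4.13%) and 1 under UQCR-14 RNAi (3.8%).

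The log2 change of Roe1 with equal weights was -0.91 under ND-75 RNAi (SE 0.39, unadjusted p = 0.0343, adjusted p = 1.00) and -0.78 under UQCR-14 RNAi (adjusted p = 1.00). With array weights it fell by 0.82 under ND-75 RNAi (SE 0.16, 95% interval -1.16 to -0.49, adjusted p = 0.00887) and by 0.61 under UQCR-14 RNAi (SE 0.16, adjusted p = 0.0361). Under COX5B RNAi the change was -0.01 (interval -0.56 to 0.53) and under ATPsynCf6 RNAi 0.07 (-0.19 to 0.32). Within the arrays numbered 3 the signal was 0.510 of control 3 under ND-75 RNAi and 0.421 under UQCR-14 RNAi, and in the other 10 arrays it was 0.521 and 0.662 of control.

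Roe1 was the single member whose level differed among the RNAi groups in the weighted F test (adjusted p = 0.00461, background 2.72%). That call was lost without replicate 1 (adjusted p = 0.0612) or replicate 2 (0.0723) of ND-75 RNAi, where the F test called 90 and 102 of all probe sets. Roe1 was lower under ND-75 RNAi than under ATPsynCf6 RNAi (difference -0.89, adjusted p = 0.00199, background 3.05%), and the difference of UQCR-14 RNAi minus ATPsynCf6 RNAi was -0.68 (adjusted p = 0.0267, background 1.86%). In the 10 arrays the first of these passed (-0.95, adjusted p = 0.00603, background 4.52%) and the other did not (-0.62, adjusted p = 0.0559). The weighted differences from COX5B RNAi, -0.81 for ND-75 RNAi and -0.60 for UQCR-14 RNAi, did not pass (adjusted p = 0.947 and 1.00).

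The Roe1 calls are less firm than the separation of the arrays. In the 10 arrays the change stayed called under ND-75 RNAi (-0.90, adjusted p = 0.0215) but not under UQCR-14 RNAi (-0.57, adjusted p = 0.0801). The actin 3'/5' signal ratio, a sign of RNA degradation, was 37.4 and 20.1 in replicates 2 and 3 of ND-75 RNAi and 2.94 to 3.95 in control. Without replicate 2 of ND-75 RNAi the remaining 9 arrays gave -0.74 (adjusted p = 0.0931). Replicate 1 of ND-75 RNAi, with a ratio of 3.79, had the signal of 312, which is below all control arrays. The part of RNA quality in the lower Roe1 signals was not tested. In the weighted fit the ND-75 call was lost without replicate 1 (adjusted p = 0.430) or replicate 2 (0.811) of ND-75 RNAi or without control 1 (0.839) or control 2 (0.791). Of all probe sets these ND-75 refits called 17, 15, 2 and 2 in the same order. The UQCR-14 call was lost without replicate 1 (0.841) or replicate 2 (0.773) of UQCR-14 RNAi or without control 1 (0.683) or control 2 (0.696). Those refits called 0, 0, 5 and 5 of all probe sets.

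Hsc70-5 is the mitochondrial Hsp70 that Roe1 serves. Its signals were 2888, 2271 and 1554 under ND-75 RNAi, 2640, 2892 and 1720 under UQCR-14 RNAi, 4876, 2921 and 2315 under COX5B RNAi and 3270, 3153 and 3194 under ATPsynCf6 RNAi, against 2255, 2364 and 1602 in control. The ATPsynCf6 RNAi arrays were close together and above all control arrays, and the other groups overlapped with control. Under ATPsynCf6 RNAi, 3 of 11 member probe sets lay above all control arrays (background 8.95%): Hsc70-5, Afg3l2 and the brighter Hsp22/CG4456 probe set. The dimmer one was the 1 member below all of them (6.26%).

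With array weights Hsc70-5 rose by 0.49 under ATPsynCf6 RNAi (SE 0.12, interval 0.24 to 0.74, adjusted p = 0.0153). The changes were 0.19 under ND-75 RNAi, 0.29 under UQCR-14 RNAi (adjusted p = 0.346) and 0.30 under COX5B RNAi. The ATPsynCf6 call was not kept in the 10 arrays (0.47, adjusted p = 0.0582) or with equal weights (0.64, adjusted p = 1.00). It was also lost without control 1 or control 2 from the weighted fit (adjusted p = 0.871 and 0.797) and without ATPsynCf6 RNAi replicate 1 or 3 (0.0552 and 0.0534). Of all probe sets these refits called 5 and 8 without the controls and 518 and 523 without the replicates. With the replicate number as a block and array weights the adjusted p of Hsc70-5 under ATPsynCf6 RNAi was 0.0964. The same fit over the 12 arrays of the other groups called COX5B RNAi (0.49, adjusted p = 0.0366, background 10.8%).

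Hsp60A, the subunit of the matrix chaperonin and the usual reporter of the mitochondrial unfolded protein response, was not called against control in any RNAi group in the 3 fits. Its signals were 1986, 1852 and 3018 under ND-75 RNAi, 1141, 1558 and 3413 under UQCR-14 RNAi, 309, 1563 and 2480 under COX5B RNAi and 2372, 2313 and 1983 under ATPsynCf6 RNAi, against 1661, 1587 and 2283 in control. Every group overlapped with control. The largest weighted change was 0.42 under ATPsynCf6 RNAi (interval 0.13 to 0.70, adjusted p = 0.0750). It passed when quantile normalization was combined with the weights (0.53, adjusted p = 0.0179, background 7.41%). The others were 0.27 under ND-75 RNAi (-0.10 to 0.65), -0.20 under UQCR-14 RNAi (-0.57 to 0.18) and 0.03 under COX5B RNAi (-0.58 to 0.64). Each of these upper bounds is below a doubling, which is 1 on this scale. With equal weights the intervals were wider and reached 1.65 under ND-75 RNAi, 1.37 under UQCR-14 RNAi, 0.60 under COX5B RNAi and 1.64 under ATPsynCf6 RNAi, so a doubling lay within all but that of COX5B RNAi. The F test among the RNAi groups passed in the 10 arrays (adjusted p = 0.0336, background 4.4%) but not with array weights (adjusted p = 0.196). In the 10 arrays the difference of UQCR-14 RNAi minus ATPsynCf6 RNAi was -0.73 (adjusted p = 0.0208, background 2.82%).

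Trap1, the mitochondrial Hsp90, had signals of 1121, 1174 and 679 under ND-75 RNAi, 977, 1064 and 386 under UQCR-14 RNAi, 37.9, 1286 and 481 under COX5B RNAi and 1278, 1105 and 1214 under ATPsynCf6 RNAi, against 984, 1128 and 559 in control. The 4 arrays numbered 3 that stand apart were low, that of control included, and COX5B RNAi replicate 1 was close to its array median of 23.1. Weighted changes ran from -0.07 under COX5B RNAi to 0.22 under ATPsynCf6 RNAi, and none was called.

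**Figure D3:**
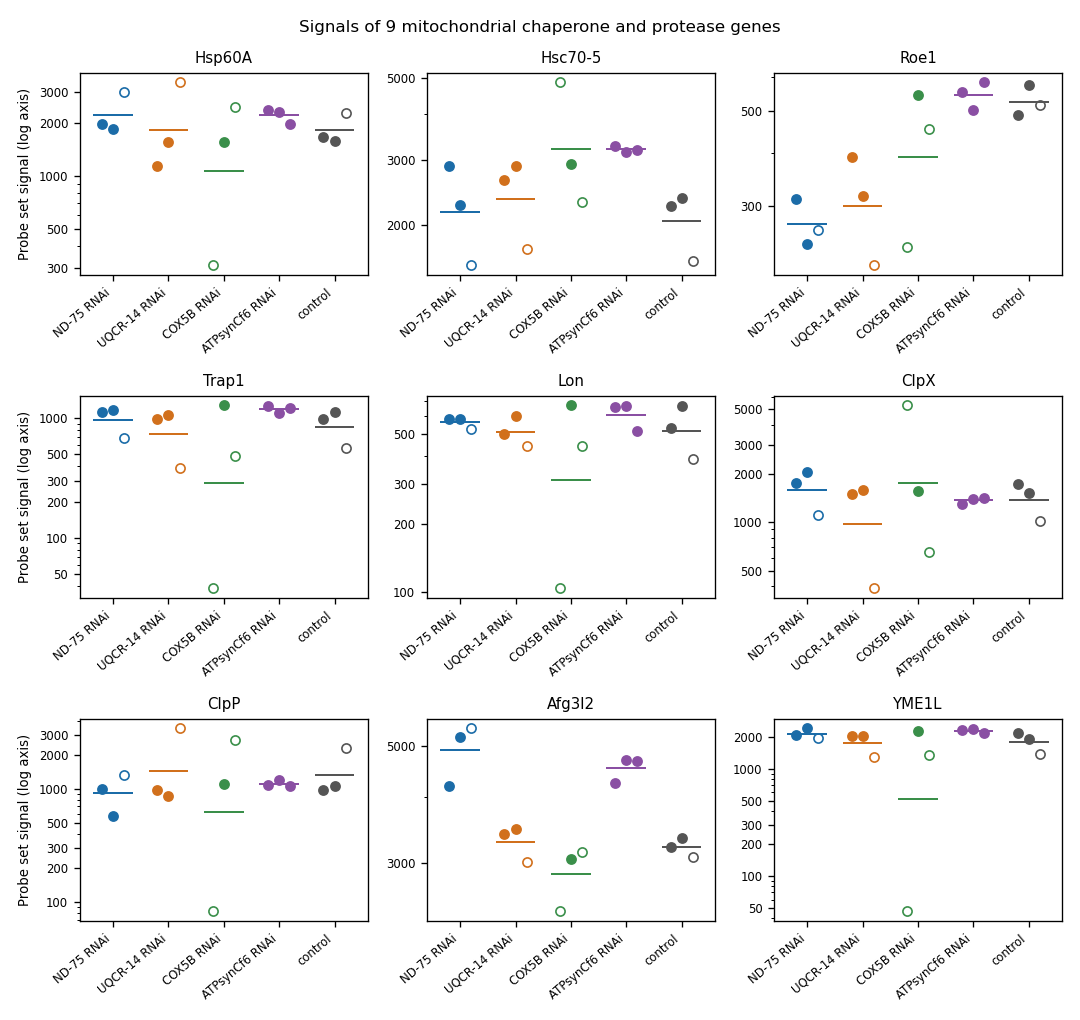
Signal of the 9 genes with a probe set of their own on each array (vertical log axes, 1 panel a gene) by group, with the geometric mean as a bar and open circles for the 5 arrays that stand apart. Roe1 lies below all control arrays under ND-75 and UQCR-14 RNAi, and Afg3l2 lies above them under ND-75 and ATPsynCf6 RNAi.

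Among the proteases, Afg3l2 was the 1 member called against control in these fits. It is a subunit of the m-AAA protease, which faces the matrix from the inner membrane. Its signals were 4199, 5210 and 5406 under ND-75 RNAi, 3403, 3483 and 3016 under UQCR-14 RNAi, 2433, 3062 and 3149 under COX5B RNAi and 4258, 4701 and 4681 under ATPsynCf6 RNAi, against 3222, 3355 and 3079 in control. ND-75 and ATPsynCf6 RNAi lay above all control arrays, while UQCR-14 and COX5B RNAi overlapped with control. Under ND-75 RNAi, 2 of 11 member probe sets were above control in this way (background 3.54%), and under UQCR-14 RNAi 1 was (3.37%). Under COX5B RNAi 0 of 11 were above (2.99%) and 0 below (4.41%).

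With array weights Afg3l2 rose by 0.48 under ATPsynCf6 RNAi (SE 0.11, interval 0.25 to 0.71, adjusted p = 0.0102). Under ND-75 RNAi the change was of the same size, 0.47 (SE 0.14, interval 0.17 to 0.77), and did not pass (adjusted p = 0.140). It was 0.08 under UQCR-14 RNAi and -0.09 under COX5B RNAi. With the replicate number as a block the weighted fit called ND-75 RNAi (0.60, adjusted p = 0.0244, background 3.43%) and no longer ATPsynCf6 RNAi (adjusted p = 0.103). In the 10 arrays neither passed (adjusted p = 0.106 under ND-75 RNAi and 0.0717 under ATPsynCf6 RNAi). The weighted ATPsynCf6 call was lost without control 1 (0.871), control 2 (0.797), or ATPsynCf6 RNAi replicate 2 (0.0537) or 3 (0.0553). Of all probe sets these refits called 5, 8, 486 and 523 in the same order.

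YME1L, the i-AAA protease of the inner membrane that faces the intermembrane space, had 2076, 2393 and 1948 under ND-75 RNAi, 2021, 2003 and 1299 under UQCR-14 RNAi, 46.4, 2259 and 1343 under COX5B RNAi and 2303, 2337 and 2158 under ATPsynCf6 RNAi, against 2180, 1881 and 1381 in control. Lon, the ATP-dependent protease of the matrix, had 580, 583 and 527 under ND-75 RNAi, 502, 603 and 444 under UQCR-14 RNAi, 103, 671 and 444 under COX5B RNAi and 657, 664 and 517 under ATPsynCf6 RNAi, against 531, 664 and 387 in control. Both were nearly flat over the 10 arrays, where the highest signal was 1.27 times the lowest for YME1L and 1.34 times for Lon.

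ClpX is the unfoldase and ClpP the peptidase of the other matrix protease. ClpX had 1748, 2039 and 1106 under ND-75 RNAi, 1503, 1574 and 388 under UQCR-14 RNAi, 5313, 1560 and 653 under COX5B RNAi and 1287, 1394 and 1413 under ATPsynCf6 RNAi, against 1716, 1509 and 1010 in control. ClpP had 1001, 574 and 1317 under ND-75 RNAi, 975, 872 and 3436 under UQCR-14 RNAi, 82.5, 1106 and 2683 under COX5B RNAi and 1090, 1197 and 1052 under ATPsynCf6 RNAi, against 984, 1050 and 2283 in control. Every group of both genes overlapped with control.

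None of Trap1, Lon, ClpX, ClpP and YME1L was called against control in the 3 fits. Between RNAi groups, ClpX was called in the 10 arrays as higher under ND-75 RNAi than under ATPsynCf6 RNAi (0.47, adjusted p = 0.0382, background 4.52%). Their weighted changes lay between -0.29, for ClpX under COX5B RNAi, and 0.31, for ClpP under COX5B RNAi. Outside COX5B RNAi their weighted 95% intervals reached at most from -0.73, for ClpP under ND-75 RNAi, to 0.55, for Trap1 under ATPsynCf6 RNAi. Under COX5B RNAi, of which replicates 1 and 3 carry little weight, they reached from -0.94 for ClpX to 1.11 for ClpP, and ClpP was the 1 gene whose interval held a doubling. With equal weights the intervals were wider, for example -2.48 to 1.41 for ClpP under ND-75 RNAi, -1.30 to 2.26 for Trap1 under ATPsynCf6 RNAi and -1.60 to 2.29 for YME1L under ATPsynCf6 RNAi, and these 3 intervals hold a doubling.

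Several members differed widely between the 5 arrays that stand apart and the other 10. Signals of ClpP were 1317 to 3436 on the 4 arrays numbered 3 and 574 to 1197 on the 10. Trap1 ran the other way, with 386 to 679 on those 4 and 977 to 1286 on the 10. COX5B RNAi replicate 1 had the lowest signal of all arrays for Hsp60A, Trap1, Lon, ClpP, Afg3l2 and YME1L, and the highest for Hsc70-5 and ClpX. Its actin 3'/5' ratio was 70.1. The part of RNA quality in these values was not tested.

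Over the 10 arrays the 9 genes with a probe set of their own did not vary as 1 group. Of their 36 pairs, 25 had a positive Pearson correlation of log2 signals, with a median of 0.23. The lowest was -0.80, between ClpX and ClpP, and the highest 0.81, between Roe1 and ClpP. The probe sets whose pattern was most like that of Hsp60A over these 10 arrays were those of gpp (r = 0.958), dpa (0.938) and Irbp (0.936). The correlations are descriptions, since all values share the same arrays and groups.

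Other genes of mitochondrial proteostasis gave no call. Of 18 such genes listed, 8 were measured above the filter, and of 18 genes of mitochondrial protein import, 10 were. With array weights 0 of 8 and 0 of 10 passed limma's test in each RNAi group, and 0 also with equal weights. The weighted background was 1.57% under ND-75 RNAi, 4.47% under UQCR-14 RNAi, 0.203% under COX5B RNAi and 6.91% under ATPsynCf6 RNAi. With equal weights it was at most 0.0677%. At such shares lists of this size can hold no call without differing from the other probe sets. At an unadjusted p under 0.05 the weighted counts were 3 of 8 proteostasis genes under ATPsynCf6 RNAi, where 20% of all probe sets were under it, and 0 of 10 import genes. For both lists they were 0 under ND-75 RNAi (10.7% of all probe sets), UQCR-14 RNAi (18%) and COX5B RNAi (5.16%). The median weighted changes of the proteostasis genes were 0.13 under ND-75 RNAi, 0.16 under UQCR-14 RNAi, -0.05 under COX5B RNAi and 0.24 under ATPsynCf6 RNAi. For import they were 0.07, -0.06, 0.01 and 0.11. Named by size of the equal-weight mean over the RNAi groups, the leading genes were the prohibitin Phb1 (-0.28) and the predicted metalloprotease CG3107 (0.28), and for import the receptor Tom20 (-0.54) and ttm50 of the inner membrane translocase (-0.30). These means include COX5B RNAi replicate 1, which had the lowest signal of all arrays for Phb1 (777), Tom20 (563) and ttm50 (65.2).

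CG11267, the homolog of the Hsp10 co-chaperonin that caps Hsp60, was looked at after its values were seen. Its weighted changes were 0.11 under ND-75 RNAi, 0.40 under UQCR-14 RNAi, 0.57 under COX5B RNAi and 0.49 under ATPsynCf6 RNAi (adjusted p = 0.107), and none passed.

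Of 10 genes of mitochondrial stress signalling listed, 8 were measured above the filter, and of these only cnc was called. It encodes the fly's Nrf2-type factor, an activator of oxidative stress genes. Its signals were 922, 1055 and 405 under ND-75 RNAi, 1120, 1083 and 293 under UQCR-14 RNAi, 2686, 1118 and 507 under COX5B RNAi and 1390, 1114 and 1072 under ATPsynCf6 RNAi, against 1766, 2116 and 866 in control. Every group overlapped with control. ND-75, UQCR-14 and ATPsynCf6 RNAi did so through control 3, one of the arrays that stand apart, and COX5B RNAi also through its replicate 1, which was above all control arrays. With array weights cnc fell by 1.01 under ND-75 RNAi (adjusted p = 0.0193, background 1.57%) and by 0.79 under UQCR-14 RNAi (adjusted p = 0.0468, background 4.47%). It fell by 0.66 under ATPsynCf6 RNAi (adjusted p = 0.0190, background 6.91%). Under COX5B RNAi the change was -0.95 (adjusted p = 0.681, background 0.203%). With equal weights 0 of 8 passed, at a background of at most 0.0677%. The transcription factors foxo and crc, the fly's ATF4, and the kinase Gcn2 passed in no group.

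Of 21 cytosolic and inducible heat shock genes listed, 9 were measured above the filter. Hsp23, Hsp83 and the genes Hsp70Aa to Hsp70Bc had no probe set of their own. Among the 9, only Hsc70-2 was called. It is a heat shock cognate of the Hsp70 family. Its signals were 51.5, 13.9 and 42.4 under ND-75 RNAi, 479, 424 and 467 under UQCR-14 RNAi, 36.2, 215 and 188 under COX5B RNAi and 575, 493 and 484 under ATPsynCf6 RNAi, against 10.9, 7.14 and 32.3 in control. UQCR-14, COX5B and ATPsynCf6 RNAi lay above all control arrays, and ND-75 RNAi overlapped with control. All control signals were below their array medians, which were 31.0 to 45.6, so the changes that follow depend on the 16 added and are no measure of fold. With array weights the log2 change passed the test in each group. It was 1.03 under ND-75 RNAi (adjusted p = 0.0323, background 1.57%) and 4.15 under UQCR-14 RNAi (background 4.47%). Under COX5B RNAi it was 3.08 (background 0.203%) and under ATPsynCf6 RNAi 4.35 (background 6.91%). With equal weights it was called under UQCR-14 RNAi (3.92, background 0.0484%) and ATPsynCf6 RNAi (4.09, background 0.0193%). Of the other measured genes of this list none passed in these 2 fits, among them DnaJ-1, Hsc70-3 and Hsp27.

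**Figure D4:**
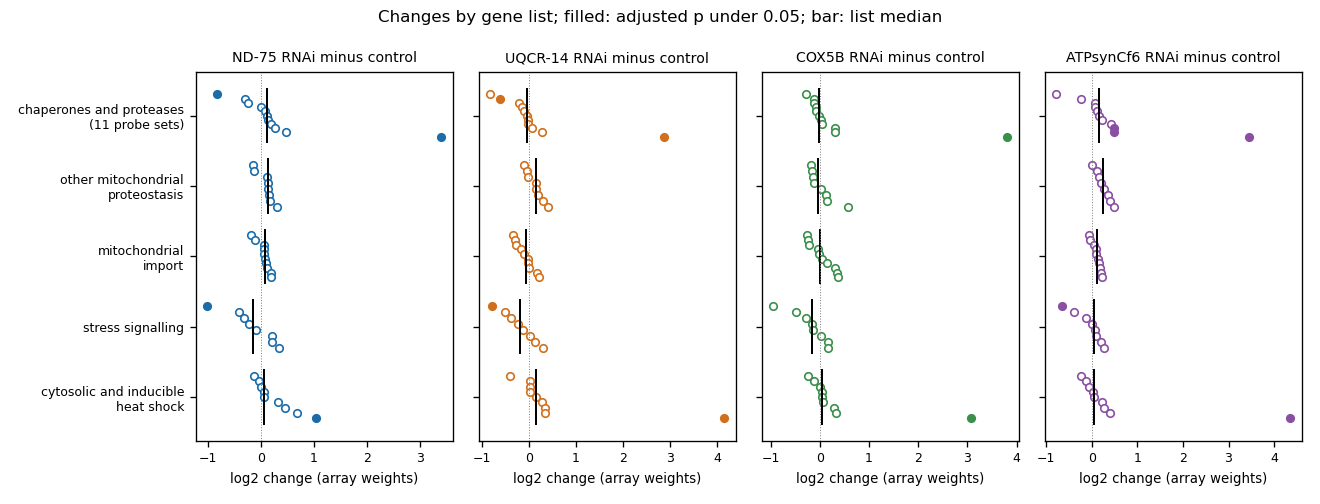
Log2 change with array weights (horizontal axis) of the member probe sets and of 4 lists of related genes in the 4 RNAi groups. Each probe set is 1 point, filled where the adjusted p was under 0.05, with the list's median as a bar. Points of the proteostasis and import lists stay unfilled in all 4 groups, and Hsc70-2 is the filled point of the heat shock list.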

How the data were processed

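The deposited table holds linear intensities, 1 signal for each probe set and array. The authors obtained them with MAS5, per the submitters' processing notes, where Affymetrix Expression Console and Transcriptome Analysis Console are listed too. The versions are not given in the sources used here. Their scaling was kept, 16 was added and log2 taken. Probe sets above the array's own median on at least 3 of 15 arrays were kept (10340). All 11 member probe sets passed.

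All 15 arrays went into 1 limma 3.58.1 fit in R 4.3.3 with 5 group means and eBayes with an intensity trend. Tests were two-sided, adjusted by Benjamini-Hochberg over the kept probe sets, with a threshold of 0.05. The code was tested on simulated data. The alternatives were array weights (limma's arrayWeights), the 10 arrays, other amounts added, no filter, median centring, quantile normalization, the replicate number as a block, a term for the arrays numbered 3, fewer groups and each array left out. Added after the data were seen were combinations with array weights, 9 arrays (the 10 without ND-75 RNAi replicate 2) and a block over 12 arrays.

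Same-numbered arrays were compared by their deviations from the group means. The correlation was 0.167 to 0.852 in the 18 pairs that hold no ATPsynCf6 RNAi array and -0.362 to 0.149 in the 12 pairs that do. Pairs with different numbers were not compared, and replicate 3 stood apart in control and in every RNAi group but ATPsynCf6. These correlations therefore cannot show whether a number pairs arrays. The block over 12 arrays takes the numbers to pair the groups other than ATPsynCf6 RNAi. The labels do not say what a number shares.

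The members and gene lists were chosen with earlier results of these data known. All members are named, and of each other list up to 4 genes, those called first and then those with the largest mean change over the RNAi groups. The rule asks for probe sets of exactly 1 gene, which Hsp22 lacks, so its shared probe sets are given instead. Sequences of the members were not used here. The number of arrays limits the precision.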

Additional observations from a re-analysis of the deposited data

Results flagged for a closer look

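Afg3l2 stood out because every array of one RNAi group lay above the control mean and every array of another lay below it. The difference of ND-75 RNAi minus COX5B RNAi was 0.77 on the log2 scale with equal weights (adjusted p = 0.532 by limma), and that of COX5B RNAi minus ATPsynCf6 RNAi was -0.66 (adjusted p = 0.528). With array weights they were 0.56 and -0.57 (both adjusted p = 1.00), so neither difference passed the test.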

How the results depend on the processing

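With equal weights 0 member probe sets were called in every comparison, and leaving out each array in turn gave 0 to 0. Counts under ND-75 RNAi were 2 with array weights, 2 in the 10 arrays, 1 with a term for the arrays numbered 3, 3 with the replicate block and array weights (3 over 12 arrays), 2 with weights and median centring, 3 with weights and quantile normalization and 1 in 9 arrays. In the same order UQCR-14 RNAi had 2, 1, 1, 3 (3), 2, 3 and 2. COX5B RNAi had 1, 1, 0, 1 (2), 1, 2 and 1. ATPsynCf6 RNAi had 3, 1, 1, 1, 3, 4 and 3, the mean of the RNAi groups 1, 1, 1, 2, 1, 4 and 2, and the F test 1, 2, 0, 3, 2, 3 and 3. Of all probe sets, weights with quantile normalization called 4.19% under ND-75 RNAi, 20.9% under UQCR-14 RNAi, 24.2% under COX5B RNAi, 7.41% under ATPsynCf6 RNAi, 14.6% for the mean and 26.6% for the F test, and the replicate block with weights called 3.43%, 15.7%, 5.93%, 2.76%, 7.75% and 8.04% (over 12 arrays 5.2%, 11.6% and 10.8%). Weights with median centring called 1.67%, 11.6%, 0.338%, 5.17%, 4.06% and 6.93%, the 9 arrays 0.928%, 9.22%, 2.97%, 5.13%, 5.34% and 4.9%, and the term for the arrays numbered 3 between 0.0193% and 0.135%. The replicate block with equal weights changed no call. It gave 3.23 and an adjusted p of 0.252 for the brighter Hsp22/CG4456 probe set under ND-75 RNAi. Fits on the groups of a contrast alone were not run for the mean and the F test, and the 12-array fits hold no ATPsynCf6 value. The direction of that probe set held in every alternative. Among the 36 changes of the other 9 genes, 22 turned sign in at least 1 of 31 alternatives. Without single arrays, Hsc70-5 under ND-75 RNAi ran from -0.12 to 0.32, Afg3l2 under UQCR-14 RNAi from -0.0057 to 0.10, and Hsp60A from -0.44 to 0.34 under UQCR-14 RNAi and -1.36 to 0.11 under COX5B RNAi. Afg3l2 also turned under UQCR-14 RNAi with quantile normalization (-0.021, with weights -0.050) and under COX5B RNAi with median centring (0.42). Hsp60A under UQCR-14 RNAi was 0.00 and became -0.0011 with quantile normalization, -0.20 with array weights, -0.28 in the 10 and the 9 arrays and with weights and median centring, -0.35 with weights and quantile normalization, and -0.25 (12 arrays -0.064) with the replicate block and weights. Under COX5B RNAi it became 0.028 with weights, 0.046 with weights and median centring and 0.0025 with the block and weights over 12 arrays. Roe1 under COX5B RNAi became 0.18 with median centring, 0.11 with quantile normalization, 0.039 in the 10 and the 9 arrays and 0.028 with weights and median centring. Under ATPsynCf6 RNAi it became -0.048 with median centring, -0.046 with quantile normalization and -0.055 with the block and weights. None of these turned values was called, and the cause was not tested. The median change over all probe sets was -0.07 under UQCR-14 RNAi and -0.32 under COX5B RNAi, and 0.12 and 0.26 with median centring.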
